A study of Mus musculus with 6 samples.

Results

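The 61 mouse miRNAs numbered miR-466, miR-467, miR-669 and miR-297 were examined in a kidney tubule cell line under metabolic stress. They were all the miRNAs on the array whose name begins with one of these 4 numbers, with any letter and either arm (5p or 3p of the hairpin), out of 1247 mouse miRNAs in all. There were 23 numbered miR-466, 23 miR-669, 12 miR-467 and 3 miR-297, read by 162 of the 3105 probes, with 1 to 4 probes each. The cells were mProx24, a proximal tubular line from the C57B6 mouse strain, and 100 ng of total RNA was labelled with the dye Cy3 for each 1-colour Agilent array. Each of 6 conditions had 1 array. The Control, High glucose and High FFAs cultures were kept at 20% oxygen. High FFAs means palmitate, a saturated fatty acid, at 150 µM with 0.15% albumin for 9 h. Hypoxia was 1% oxygen for 12 h. Triple stimuli combined high glucose, palmitate with albumin and 1% oxygen, and Triple stimuli + Rapamycin added 0.4 µg/ml of rapamycin, an inhibitor of the mTORC1 kinase complex, for 12 h before the palmitate. All cultures shared the same serum-containing medium, the glucose concentrations are not given in the sources used here, and the labels name albumin only with palmitate, so these 2 cannot be told apart.

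A miRNA is a short RNA cut from a hairpin, and its seed, bases 2 to 8, pairs with target mRNAs and directs their repression. Most miRNA genes of these 4 numbers lie in tandem copies within Sfmbt2, a Polycomb-group gene that is imprinted and expressed from the paternal copy in early mouse development and placenta, where the cluster is needed for the placenta to form. The repeated units spread in rodents and carry long stretches of alternating purine and pyrimidine bases, so many of the mature miRNAs resemble each other closely.

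The label of an Sfmbt2 cluster held for most of the genes, but the miRNAs with signal were split between that cluster and other places. In RefSeq (GRCm38.p6), 71 of 81 genes with these numbers lie inside Sfmbt2 at chr2:10370440-10595253, in a stretch of 51.6 kb at chr2:10466663-10518279. Of the probe positions in the scanner files, only those inside these 81 genes were used. They placed 51 members only inside Sfmbt2, 7 only in genes elsewhere and 3 in both. For 32 members other listed positions lay outside these genes. By the spot rule used throughout, in which a miRNA is detected where at least 0.5 of the spots of any of its probes were well above background, 2 of the 51 and 3 of the 7 were detected on at least 1 array, and 0 of the 3. By the scanner software's call these were 4 of the 51, 4 of the 7 and 0 of the 3. The members are therefore called here by their numbers, with the place of their gene given for each. Gene positions were spans only, so whether a hairpin lies in an intron or an exon of the surrounding gene is not stated.

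**Figure D1:**
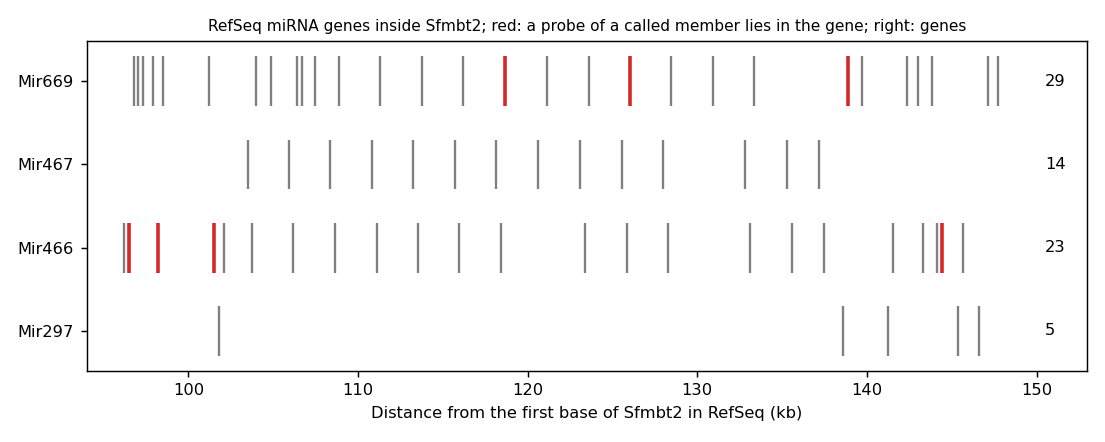
Position of the 71 RefSeq miRNA genes inside Sfmbt2, as distance in kb from the first base of that gene, with 1 row for each number and the count of genes at the right; red marks genes that hold a probe of a member called by the scanner software. The genes run from 96.2 to 148 kb into the 225 kb gene, and the 7 red ones are spread along that stretch.

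The probes show what the array could read of these miRNAs. Below are the longest probe of each detected member with a pair of probes, 1 of the 4 for miR-669p-3p, and for contrast the longest probe of miR-669f-3p, which was not detected. Letters run 5′ to 3′ as deposited, and the capitals mark the longest stretch of alternating C and A, or of alternating G and T.
miR-466i-5p: CACACACACACACACA
miR-467f: tgtagGTGTGTGTGTGT
miR-466h-3p: GTGTGTGTGTGcgt
miR-466q: acgtaTGTGTGTGTGTG
miR-669p-3p: atacGTGTGTGTGTGTatg
miR-669f-3p: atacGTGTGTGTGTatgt
RefSeq held the mature sequence of 7 members. All 16 of their probes equalled the start of the reverse complement of that sequence, so a probe reads a miRNA from its 3′ end, and the first mature base covered lay between position 1 and position 7. Of these 16 probes, 2 covered all 7 seed bases. The mature sequences of the detected or called members among the 7, with the seed in capitals, were:
miR-467f: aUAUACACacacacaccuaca
miR-466q: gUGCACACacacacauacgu
miR-466i-3p: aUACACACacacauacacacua
Their seeds differ from one another, while the 3′ parts that the probes cover all hold a stretch of alternating A and C.

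The genes of the 3 members detected elsewhere lie inside protein-coding genes by position. The strands of miRNA gene and surrounding gene were not compared, so a shared transcript is not implied. Mir466i, at chr13:17747473-17747593, lies inside Cdk13, which codes for a cyclin-dependent kinase of transcription. Mir467f lies inside Fxr2, a gene for an RNA-binding protein, and its mature sequence is at chr11:69635419-69635439 on the minus strand. Mir466q lies inside Tnik, a gene for a kinase of the Wnt pathway, with the mature sequence at chr3:28419988-28420007 on the plus strand. The 2 detected members inside Sfmbt2 are miR-466h-3p, in Mir466h at chr2:10514891-10514971, and miR-669p-3p, whose probes lie in Mir669p-1 at chr2:10489116-10489202 and in Mir669p-2 at chr2:10496497-10496583.

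Between 162 and 194 miRNAs passed the spot rule on an array, no miRNA spot was saturated, and the 75th percentile of detected probes, to which each array was scaled, lay between 295 and 382 scanner units. The spread of negative control spots was widest on High glucose, with an SD of 8.72 scanner units against 5.12 to 6.37 on the other 5 arrays. Of 11 kidney and proximal tubule miRNAs 7 were detected, the miR-10 and miR-30 members, while miR-192, miR-194, miR-215 and miR-204 were not. None of 5 epithelial miR-200 family members, 4 blood, 2 endothelial or 4 fibroblast and smooth muscle miRNAs was detected. One miRNA of 3 known from skeletal muscle, miR-206-3p, passed on all 6 arrays at 45.9 to 53.2 scanner units. In the authors' deposited value table, the columns of High glucose and High FFAs equalled each other's scanner file within 0.1% for 70.9% and 70.6% of the miRNAs compared and their own for 0%. Results below follow the scanner files, and every value of High glucose or High FFAs below would change places with the other if these labels were exchanged.

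Detection was sparse. By the spot rule 5 of 61 members (8.20%) were detected on at least 1 array, against 198 of all 1247 miRNAs (15.9%), and 2 members were detected on all 6 arrays, against 154 of all (12.3%). By the scanner software's own call, which takes a miRNA as present where any of its probes exceeds 3 times its error, 8 of 61 (13.1%) were called on at least 1 array, against 240 of all (19.2%). The 3 extra members were miR-466f-3p, miR-466i-3p and miR-669c-3p. By number, the spot rule detected 3 of 23 miR-466, 1 of 12 miR-467, 1 of 23 miR-669 and 0 of 3 miR-297. An array probe shows whether its own spots stand above background. Levels of different miRNAs are not compared here, because probes bind with different strength.

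miR-466i-5p was detected on all 6 arrays, with every spot of both its probes well above background on each. Its summed signal, the scanner software's total over its probes with the software's error, was 129 ± 9.33 scanner units in Control, 161 ± 11.6 in High glucose, 141 ± 10.2 in High FFAs, 120 ± 8.72 in Hypoxia, 158 ± 11.4 under the triple stimuli and 166 ± 12.0 with rapamycin added. Before scaling, Hypoxia and Control were the lowest and the rapamycin array the highest, by 1.39-fold from lowest to highest. These 2 low arrays are the ones in the first column of the slide, and are also the 2 with neither high glucose nor palmitate, so place on the slide and medium cannot be told apart there. Its 16-base probe ran from 235 ± 11.5 (SD over 19 spots) in Hypoxia to 328 ± 16.3 (SD over 19 spots) with rapamycin, and its spots varied by 4.90% to 5.97% within an array. The 16-base and 15-base probes gave the same order at both ends, with Hypoxia lowest and rapamycin highest.

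miR-467f, the other member detected on all 6 arrays, had summed signals of 11.3 ± 2.01 in Control, 12.2 ± 2.14 in High glucose, 12.2 ± 2.11 in High FFAs, 12.1 ± 2.04 in Hypoxia, 14.3 ± 2.14 in Triple stimuli and 14.3 ± 2.09 with rapamycin. The 2 arrays with all 3 stimuli were highest, but the errors of all 6 overlapped. Of the spots of its better probe, a share between 0.65 in Control and 0.9 in Hypoxia and Triple stimuli was well above background.

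miR-466h-3p was detected on 5 arrays and not on High FFAs, where 0.4 of the spots of its better probe passed. Its summed signal was 12.5 ± 2.04 in Control, 13.7 ± 2.15 in High glucose, 11.4 ± 2.07 in High FFAs, 12.5 ± 2.05 in Hypoxia, 14.4 ± 2.13 in Triple stimuli and 14.5 ± 2.08 with rapamycin. It is the only member inside Sfmbt2 detected on more than 3 arrays by the spot rule, and its 6 values overlap within their errors. Exchanging the labels of High glucose and High FFAs would move the missing call to High glucose.

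miR-466q was detected on 4 arrays and not on High glucose or High FFAs. Its summed signal was 7.75 ± 1.95 in Control, 8.38 ± 2.03 in High glucose, 6.78 ± 1.98 in High FFAs, 7.37 ± 1.94 in Hypoxia, 8.25 ± 1.97 in Triple stimuli and 7.91 ± 1.91 with rapamycin. High glucose had the highest signal although it missed the spot rule, with 0.35 of spots well above background, so the call and the signal do not follow each other at this level. Its calls came from its 17-base probe alone, since its 16-base probe had no spot well above background on any array.

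miR-669p-3p was detected on High glucose, Triple stimuli and Triple stimuli + Rapamycin. Its summed signal was 9.94 ± 1.39 in Control, 11.7 ± 1.47 in High glucose, 9.23 ± 1.41 in High FFAs, 10.6 ± 1.40 in Hypoxia, 12.4 ± 1.45 in Triple stimuli and 12.4 ± 1.41 with rapamycin. The 3 arrays with a call are the 3 labelled with high glucose and also its 3 highest values; with the labels of High glucose and High FFAs exchanged, they would be the 3 with palmitate. The software's error ranges of High FFAs and of the 2 arrays with all 3 stimuli do not overlap. Its highest share of spots on an array was 0.6, in High glucose, and the shares on Control and Hypoxia were 0.3 each. On Triple stimuli and with rapamycin the share was 0.5, exactly at the limit. The calls came from the 19-base probe on High glucose, the 18-base and 19-base probes on Triple stimuli, and the 17-base probe with rapamycin. No single probe passed on all 3 arrays. The 3 members called by the software alone had summed signals of 3.58 to 4.93 for miR-466f-3p, called on 6 arrays, 5.87 to 7.36 for miR-466i-3p, called on 4, and 5.22 to 6.27 for miR-669c-3p, called on 4.

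**Figure D2:**
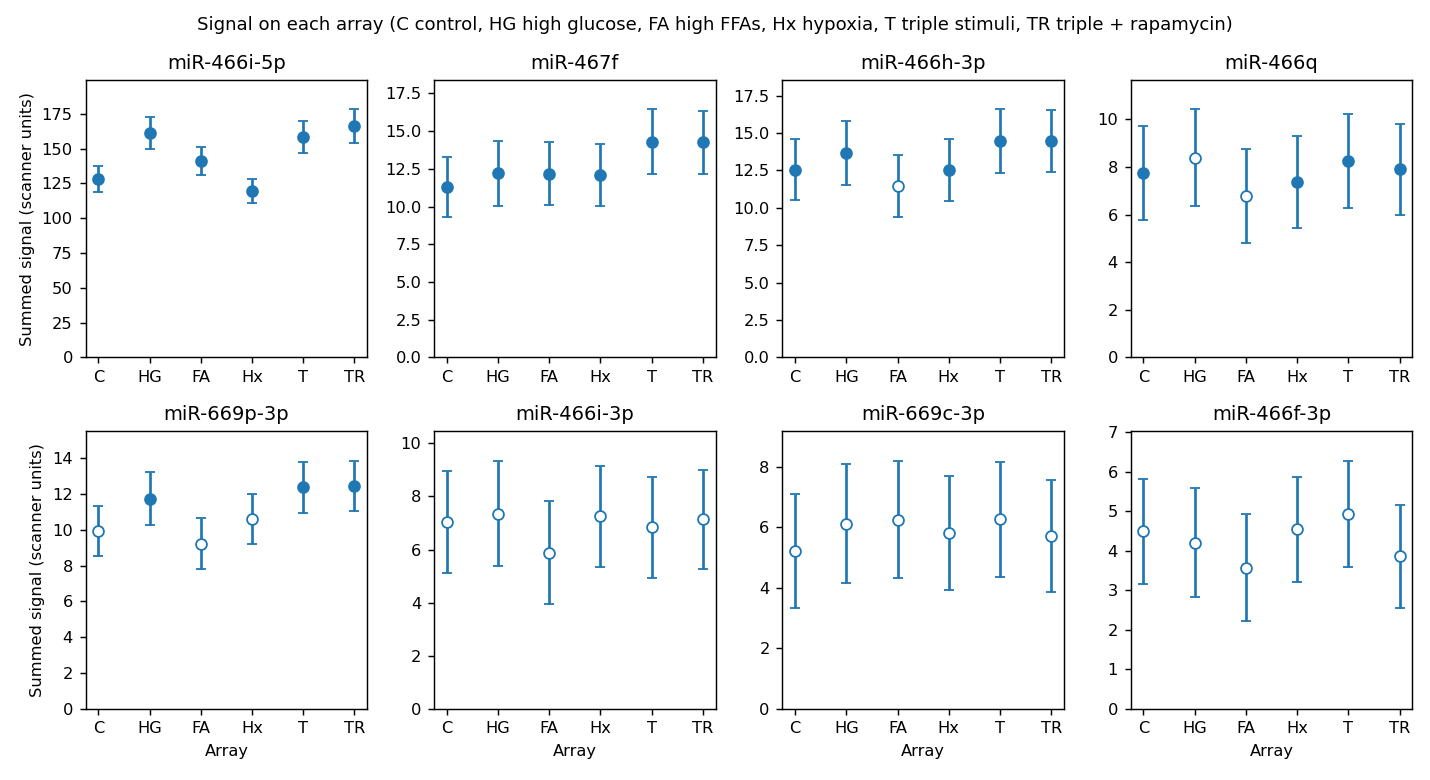
Summed signal of each of the 8 members called by the scanner software, in scanner units from 0 with a separate axis for each, on the 6 arrays (1 per condition); bars are the software's error, filled points are arrays that passed the spot rule and open points are arrays that did not. miR-466i-5p is filled throughout and runs from 120 in Hypoxia to 166 with rapamycin, while the bars of the other 7 overlap across the arrays except for miR-669p-3p between High FFAs and the 2 arrays with all 3 stimuli.

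The other 53 members were called on no array by either rule. Their mean summed signals over the 6 arrays ran from -1.67 (miR-466n-5p) to 6.03 (miR-669n) after background subtraction, and 33 of the 53 means were below 0. The median software error of a member lay between 1.78 and 1.90 on the arrays. miR-669n had 4.61 to 6.72 scanner units on the 6 arrays and at most 0.05 of its spots well above background. miR-669f-3p had a mean of 2.53 and no spot well above background. A member called by neither rule was not detected on these arrays, which is not the same as an absent miRNA.

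The called members shared a feature of their probes that the rule did not use. The description that follows was made after the values were seen and carries no test. Of the 61 members, 9 had a probe with an alternating run of 10 bases or more, and 8 of these 9 were called by the software and 5 by the spot rule. Of the 52 with shorter runs 0 were called by either. Just outside that limit lay 4 members with a run of 9 bases (miR-466a-5p, miR-466p-5p, miR-467g and miR-669a-3-3p), none of them called. Just inside lay 3 with a run of 10, of which miR-466f-3p and miR-466i-3p were called by the software and miR-669f-3p was not. With a run of 8 bases, miR-669n was not called at a mean summed signal of 6.03. The means of the called miR-669c-3p and miR-466f-3p were lower, at 5.90 and 4.27. The probes printed above for miR-669p-3p and miR-669f-3p begin with the same letters, and their runs are 12 and 10 bases.

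The probes of 1 miRNA did not always give the same call, although the probes of a pair differ by 1 base. Both probes of miR-466i-5p passed on all 6 arrays. The 13-base probe of miR-466h-3p passed only with rapamycin, with 0.5 of its spots, and the 16-base probe of miR-467f passed on no array, with at most 0.25. For miR-669c-3p the 17-base probe had no spot well above background on any array, and the 18-base probe reached 0.15. Whether other RNAs with such repeats add to these signals was not tested.

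miRNAs outside the 4 numbers with UG repeats, whose probes alternate C and A as those of miR-466i-5p do, were read for comparison. The runs in the probes of miR-467f, miR-466h-3p, miR-466q and miR-669p-3p alternate G and T instead, so these members have no counterpart in this comparison. Among miRNAs on the array whose RefSeq mature sequence holds 4 UG repeats in a row, 5 carried other numbers, and 3 of them were detected on all 6 arrays. Their mature sequences, with the seed in capitals, were:
miR-574-5p: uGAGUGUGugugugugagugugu
miR-1187: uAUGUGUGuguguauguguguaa
miR-3082-5p: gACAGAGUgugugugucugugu
The genes of all 3 lie outside Sfmbt2, on chromosomes 5, 5 and 17. The other 2, miR-32-3p and miR-672-5p, were detected on no array, so not every miRNA with the stretch was detected. The longest runs in their probes are 9 and 8 bases. Of all miRNAs outside the 4 numbers, 2 had a probe run of 10 bases or more, miR-574-5p and miR-3082-5p, and both were detected on all 6 arrays. Of the 1184 with shorter runs 191 were detected on at least 1 array, among them miR-1187. Its longest run is 9 bases, and every spot of its 19-base probe was well above background on all 6 arrays.

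**Figure D3:**
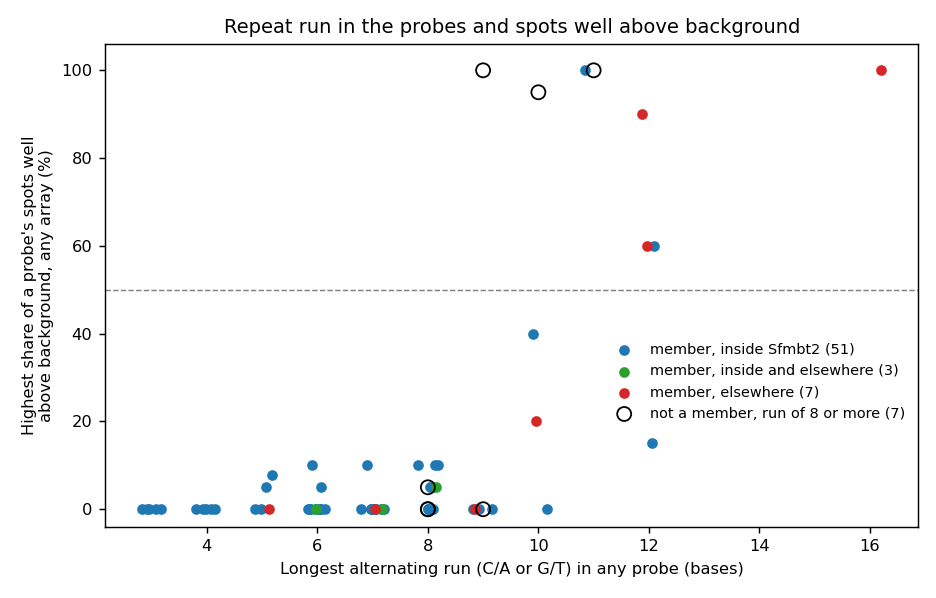
For each miRNA, the longest alternating run in any of its probes (bases, points spread sideways for members) against the highest share of a probe's spots well above background on any array (%), with the limit of 50% dashed; filled points are the 61 members by place of their gene, and open circles are the 7 other miRNAs with a run of 8 bases or more. Members with runs under 10 bases reach 10.0% at most, and the 5 members above the line have runs of 11 to 16 bases.

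No member passed the rule for a difference between 2 arrays in any of the 7 comparisons. That rule asks for detection on both arrays, at least 1.5-fold, and more than 2 standard errors, where the error covers the spread of spots within an array only. With 1 array per condition there is no replicate check and no p-value. Values are log2 differences of the brightest probe after scaling. The members tested and called, beside the share of all tested miRNAs called, were 0 of 3 for High glucose against Control (6.79% of all), 0 of 2 for High FFAs (2.58%), 0 of 4 for Hypoxia (1.85%), 0 of 4 for Triple stimuli (5.59%) and 0 of 4 for Triple stimuli + Rapamycin (9.15%). They were 0 of 4 for Triple stimuli against Hypoxia (8.77%) and 0 of 5 for rapamycin against Triple stimuli (3.8%). With 2 to 5 members tested, a count of 0 is close to what these shares give.

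Within that limit miR-466i-5p had the smallest spot errors of the members. Against Control it differed by 0.03 ± 0.02 (spot SE) in High glucose, 0.03 ± 0.02 in High FFAs, 0.06 ± 0.03 in Triple stimuli and 0.01 ± 0.02 with rapamycin. In Hypoxia it was lower by a log2 difference of -0.28 ± 0.02, or 1.22-fold, where the median of all tested miRNAs was -0.11. Its 15-base probe gave -0.29 ± 0.03 there. Triple stimuli exceeded Hypoxia by 0.34 ± 0.03, against a median of 0.10 over all tested, and rapamycin differed from Triple stimuli by -0.05 ± 0.03. So under the main scaling 1% oxygen alone had the low value. The 2 arrays with 1% oxygen plus high glucose and palmitate were then within 0.06 of Control. Under 8 other ways of processing, the Hypoxia difference ran from -0.30 to -0.10 and Triple stimuli against Hypoxia from 0.14 to 0.39, with no change of sign. Triple stimuli against Control ran from -0.11 to 0.29 and rapamycin against Control from -0.10 to 0.38, each with both signs. High glucose against Control ran from -0.09 to 0.31, with both signs. The closeness of these arrays to Control therefore depended on the scaling.

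The other members had wider spot errors. miR-466q was below Control by -0.32 ± 0.09 in Hypoxia, -0.28 ± 0.10 in Triple stimuli and -0.46 ± 0.10 with rapamycin, the last being 1.37-fold, and it kept that sign under 8 of 8 other settings in each of these 3 comparisons. Without scaling the 3 differences were -0.14, -0.05 and -0.08, and Control had the lowest 75th percentile of the 6 arrays. The 8 settings reuse the same spots, so they are not separate support. In Hypoxia its 17-base probe, the brightest, was the lowest detected probe of that array. Before scaling its 16-base probe, with no spot well above background, rose from 3.18 in Control. It read 4.11 in Hypoxia, 5.86 in Triple stimuli and 5.14 with rapamycin. The summed signal of miR-466q before scaling was 7.75 in Control, 7.37 in Hypoxia, 8.25 in Triple stimuli and 7.91 with rapamycin. miR-466h-3p differed from Control by -0.28 ± 0.09 in High glucose, -0.16 ± 0.09 in Hypoxia, -0.01 ± 0.09 in Triple stimuli and -0.19 ± 0.07 with rapamycin. Without scaling all 4 signs turned, to 0.0041, 0.02, 0.22 and 0.18. miR-467f differed by 0.01 ± 0.10 in High glucose, 0.20 ± 0.09 in High FFAs, 0.03 ± 0.09 in Hypoxia, 0.23 ± 0.11 in Triple stimuli and 0.05 ± 0.10 with rapamycin. An exchange of the High glucose and High FFAs labels would swap its first 2 values, and other settings turned the sign of each of the 5. miR-669p-3p was detected on both sides only for rapamycin against Triple stimuli, where its brightest probe gave -0.39 ± 0.16. Under 8 other settings this difference ran from -0.34 to -0.08, all nearer to 0 than the value given. That 18-base probe had 0.4 of its spots well above background with rapamycin, so it missed the spot rule there, and the 17-base probe gave the call. Before scaling the 18-base probe fell from 25.7 to 21.6 scanner units. The 16-base, 17-base and 19-base probes rose, from 19.9 to 20.9, 18.7 to 20.8 and 23.2 to 24.7.

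miR-574-5p, miR-1187 and miR-3082-5p are given beside miR-466i-5p, and all comparisons with Control share that 1 array. In Hypoxia they differed from Control by -0.36 ± 0.04, -0.12 ± 0.07 and -0.31 ± 0.08. From Hypoxia to Triple stimuli they differed by 0.39 ± 0.03, 0.29 ± 0.06 and 0.59 ± 0.08. These 2 comparisons share the Hypoxia array, and the medians of all tested miRNAs, -0.11 and 0.10, have the same signs. In High FFAs they lay at 0.15 ± 0.03, 0.33 ± 0.07 and 0.41 ± 0.06, while miR-466i-5p lay at 0.03. On the array labelled High glucose, whose values the deposited table lists as High FFAs, they lay at 0.03 ± 0.04, 0.13 ± 0.08 and 0.29 ± 0.06. Their summed signals were lowest on Control or Hypoxia and highest on the rapamycin array, from 44.6 to 64.3 scanner units for miR-574-5p, 21.0 to 30.9 for miR-1187 and 14.3 to 26.5 for miR-3082-5p. What these RNAs share beyond the repeat, including the part of the slide and the array they were read on, was not tested.

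**Figure D4:**
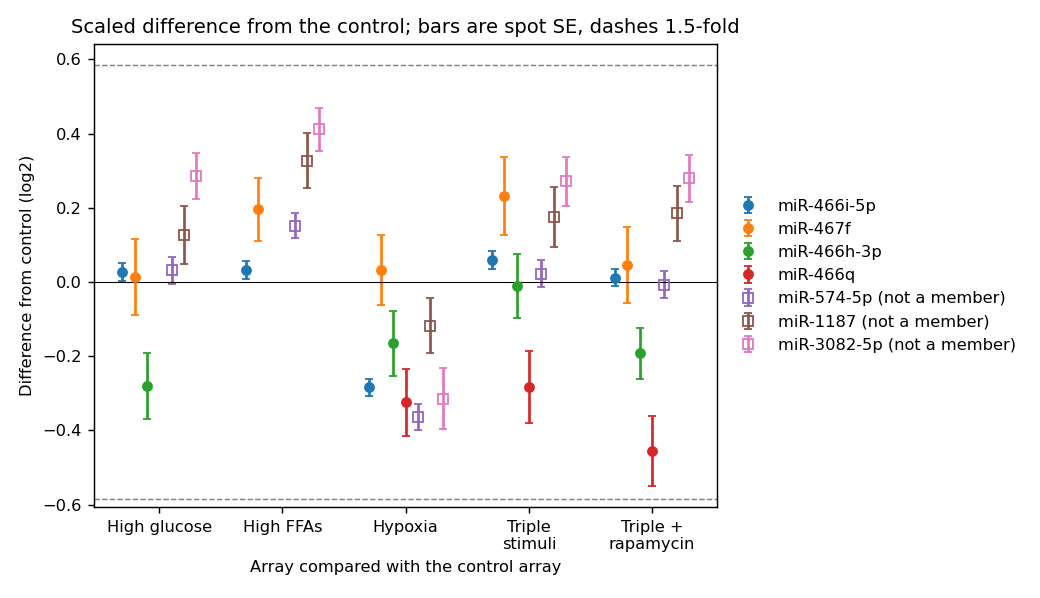
Log2 difference from the Control array after scaling, for the 4 members detected on Control and for 3 other miRNAs with UG repeats, on each of the other 5 arrays; bars are the standard error over spots, dashed lines mark 1.5-fold, and a member is drawn only where it was detected on both arrays. Every point lies within the dashed lines, and in Hypoxia miR-466i-5p at -0.28 stands beside miR-574-5p at -0.36.

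The 6 arrays also allow splits of 3 against 3, tested with limma over the 154 miRNAs detected on all 6 arrays, of which 2 are members. In each split the remaining treatments are unequal between the 2 sides, with rapamycin always on 1 side, so they enter both the difference and the spread. For oxygen (1% against 20%), miR-466i-5p averaged -0.30 ± 0.19 against -0.21 ± 0.02 (SD, n = 3 each; log2 relative to the 75th percentile), a difference of -0.09 ± 0.10 (SE) with limma's adjusted p = 0.930, and miR-467f differed by 0.03 ± 0.09 (adjusted p = 0.963). limma called 0 of 154 for oxygen (0% of all), with 7 (4.55%) at an unadjusted p under 0.05, none of them a member. The values of the 2 sides overlap for both members, and do not for 11% of the 154. Each side of this split is also 1 row of the slide, so oxygen and slide row cannot be told apart.

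For glucose (high against normal, as labelled), miR-466i-5p averaged -0.20 ± 0.02 against -0.32 ± 0.17 (SD, n = 3 each), a difference of 0.12 ± 0.10 with limma's adjusted p = 0.604. Without scaling it was 0.31 with limma's adjusted p = 0.0238, and over 14 alternatives it ran from -0.05 to 0.31 (adjusted p from 0.0238 to 0.983). miR-467f differed by 0.02 ± 0.09 (limma's adjusted p = 0.950). limma called 15 of 154 for glucose (9.74%), with 30 (19.5%) at an unadjusted p under 0.05, and neither member was among them. The 2 sides overlap for both members, and do not for 29.2% of the 154. For palmitate (with against without, as labelled), miR-466i-5p differed by 0.12 ± 0.10 (limma's adjusted p = 0.909). miR-467f averaged -3.42 ± 0.10 with palmitate against -3.56 ± 0.02 without (SD, n = 3 each), a difference of 0.14 ± 0.07 with limma's adjusted p = 0.813. Its 3 palmitate arrays all lay above the other 3, as the groups of 7.79% of the 154 miRNAs also did not overlap. limma called 0 of 154 for palmitate (0% of all), with 5 (3.25%) at an unadjusted p under 0.05 and neither member among them. An exact permutation test of 3 against 3 cannot go below p = 0.1. Exchanging the High glucose and High FFAs labels turns the glucose split into the palmitate split. After scaling, miR-466i-5p was low in Hypoxia alone, while before scaling Control was low as well. The spread of the sides that hold Hypoxia (0.17 to 0.19) was larger than that of the others (0.02).

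Members of 2 other miRNA groups, known from imprinting and from early embryos, were read beside the 15.9% of all miRNAs detected, with no test of the difference. Of 102 miRNAs of the imprinted Dlk1-Dio3 cluster 3 were detected on at least 1 array, miR-370-3p, miR-494-3p and miR-770-3p. Of 24 miRNAs of the embryonic stem cell clusters around miR-290 and miR-302, 1 was detected, miR-290-5p, and the software called 3.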

How the data were processed

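Per the file headers, the authors scanned each array with Agilent Feature Extraction 10.7.3.1, and the deposited spot values are intensity values on a linear scale, background-subtracted and not normalised between arrays. The authors' deposited value table holds a linear signal per miRNA, floored, equal within 0.1% to the software's summed signal divided by 1 factor per array for 68.7% to 73.5% of the miRNAs compared; it served as an alternative. A probe's value was the mean of its spots without an outlier flag. Arrays were scaled to the 75th percentile of the 281 probes that passed the spot rule on every array. Values were then raised to at least the array's lowest detected probe signal, log2 was taken, and the brightest probe stood for a miRNA. limma 3.58.1 in R 4.3.3 (lmFit, eBayes, Benjamini-Hochberg, threshold 0.05) tested the splits of 3 against 3, and both rules were tested on simulated data. The number of arrays limits the precision. Each condition was taken from its sample title. Members detected by the spot rule were named with every array, members called by the software alone with their range, and the others by counts and ranges; miR-669n, miR-669f-3p and the members with runs of 9 or 10 bases were named after seeing their values. The members, lists and tests were chosen with earlier results of these data known. The header of the scanner files names the mm9 build, but all 61 members had a listed probe position inside a GRCm38.p6 RefSeq gene of their own number. For 32 members other listed positions lay outside these genes and were not used.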

Additional observations from a re-analysis of the deposited data

How the results depend on the processing

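The count of members detected moved most, from 5 to 3 when 0.75 of the spots had to pass, to 2 when every probe of a miRNA had to pass, and to 8 by the software's call, and with 0.25 of the spots it was 6. Without scaling, the glucose split called 1 member, miR-466i-5p, at 0.31 (limma's adjusted p = 0.0238; 0.0238 to 0.983 over its 14 alternatives), when 48 of all 154 miRNAs were called. The cause was not tested. The 115 other alternatives of the counts of members gave the same side of the threshold, and none of the 119 reversed a call. Most of these were counts of 0 with 2 to 5 members tested, which left little room to move. Of 299 alternatives of the other results, 149 stayed the same, 149 moved and 1 was stronger. Leaving out 1 array at a time gave 0 members called in each split, while the glucose calls over all miRNAs fell from 15 to 5 without Control, 6 without Hypoxia and 1 without Triple stimuli + Rapamycin, and were 39 under median scaling and 23 under quantile normalization. Scaling moves the median of all tested miRNAs by over 0.1: for High glucose against Control it was -0.05 in the main setting, 0.23 without scaling and -0.17 with median scaling. miR-467f against Control changed sign with the setting in all 5 comparisons, to -0.87 for High FFAs in the deposited value table, whose column of that name holds the values of the scanner file labelled High glucose. No paired analysis was possible because each condition has 1 array. Signals near background limit every member but miR-466i-5p.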
